A study of Canis lupus familiaris with 32 samples.

Results

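The genes of the secretory pathway and of vesicle traffic were followed in 32 primary canine osteosarcomas. Members were the genes whose symbol on the array belongs to the signal recognition particle (SRP), the translocon and signal peptidase families (SEC, SSR, SPCS), the vesicle coats and cargo receptors (COP, ARF, TMED), the Rab GTPases (RAB), the endosomal sorting families (VPS, SNX), the SNARE proteins (STX, VAMP, GOSR), the REEP family or TMEM30A. They numbered 99 of the 5246 genes with a symbol and were read by 156 of 22176 probes. The choice was by name, so it also took in VPS72, a subunit of chromatin remodeling complexes, and RAB5IF, a membrane protein of the endoplasmic reticulum (ER) that is not itself a Rab. The rule works on names alone and uses no measured value, but TMEM30A, the 1 gene it spells out in full, was known from earlier results of these data.

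Tumors fell into short survivors (SS, 16 dogs) and long survivors (LS, 16 dogs) by the dog's survival time. None of the dogs had been treated before surgery, and RNA came from pulverized frozen bone tumor, so it holds every cell type in the piece. Each tumor was hybridized on 1 two-color cDNA array against a pool made from all 32 tumors, so a gene at the level of the pool has a ratio of 0 on the log2 scale, and the levels of different genes cannot be compared. The tumor carried Cy5 on 16 arrays and Cy3 on 16, with 8 arrays of each dye orientation in each survival group. In such bulk tissue, fewer cells of a type and less RNA per cell cannot be told apart.

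Proteins that leave the cell, or that live in its membranes, enter the ER while they are being made. The SRP brings the ribosome to the ER, the SEC61 channel threads the chain through the membrane, and signal peptidase trims it. COPII coats carry cargo out of the ER, COPI coats carry it back, Rab GTPases and SNAREs direct and fuse the carriers, and VPS proteins and sorting nexins sort cargo at endosomes. Osteoblasts, from which osteosarcoma cells draw their bone-forming traits, secrete large amounts of collagen and bone matrix by this route.

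TMEM30A was the member that separated SS from LS tumors most clearly. The encoded protein is the partner subunit that phospholipid flippases need to leave the ER. Its log2 ratio ran from -0.14 to 0.76 in SS tumors (median 0.18) and from -0.55 to 0.30 in LS tumors (median -0.21). The groups overlapped, but 4 SS tumors lay above the highest LS tumor and 11 LS tumors lay below the lowest SS tumor. All 16 SS tumors were above the LS mean. The group means were 0.21 ± 0.24 in SS and -0.21 ± 0.24 in LS (SD, n = 16 each), a difference of 0.42 ± 0.09 (SE) or 1.34-fold, with a 95% interval of 0.25 to 0.60.

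The test of SS against LS without a covariate (limma, Benjamini-Hochberg adjustment over 19728 features at a threshold of 0.10) called 0 members, beside 0% of all features. TMEM30A had an adjusted p of 0.392 there, the lowest of the whole table, and an unadjusted p of 2.5e-05. With the dye orientation of the tumor as a second term, limma called 69 features, which is 0.35% of those tested, and TMEM30A was the 1 member among them (adjusted p = 0.0394). Of the 5246 genes with a symbol, 15 were called higher and 5 lower. TMEM30A was called higher in SS, as were 0.142% of features, and 0 members were called lower, where 0.208% of features were. The difference was 0.41 in Cy5 tumors and 0.43 in Cy3 tumors, and the Cy3 tumors alone passed the threshold (adjusted p = 0.155 in Cy5 and 0.0219 in Cy3, limma). The test of the difference between the orientations gave -0.02 ± 0.17 (SE, adjusted p = 0.958, limma). A permutation test of its group difference with 100000 resamples gave p = 4e-05 (two-sided, n = 16 each), with no adjustment, for a gene that earlier results had already singled out. Leaving out each array in turn kept the call of the model with dye orientation in 32 of 32 fits (adjusted p 0.0193 to 0.0712). Without LS tumor 30 the model without a covariate called it too (adjusted p = 0.082). The other leave-one-out fits of that model did not call it (adjusted p up to 0.594, limma). Had the dye-swapped arrays not been switched, the difference of TMEM30A over all 32 arrays would be -0.01. Its side over all arrays therefore rests on the stated switching, while the 0.41 of the Cy5 tumors stays the same when the Cy3 arrays are turned.

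**Figure D1:**
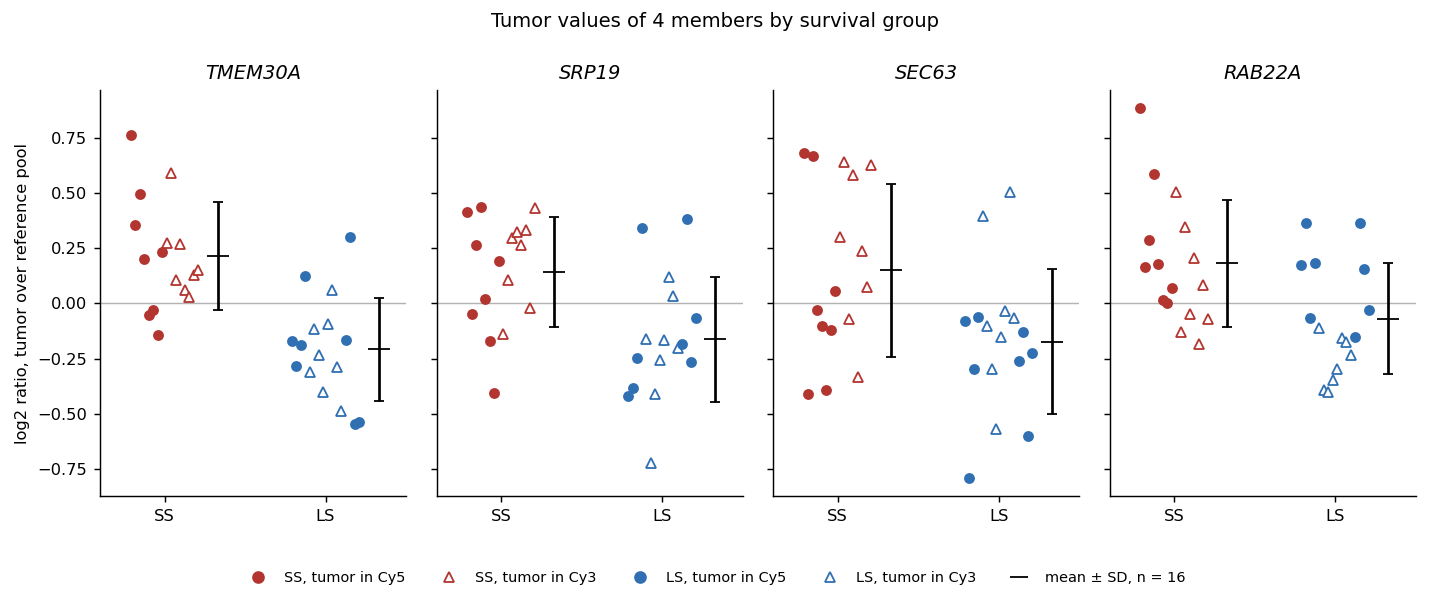
Log2 ratio of tumor over reference pool for TMEM30A, SRP19, SEC63 and RAB22A, with SS tumors left of LS tumors. Filled circles are tumors labeled with Cy5, open triangles tumors labeled with Cy3, and the black marks are the mean ± SD of 16 tumors. The SS mean lies above the LS mean in all 4 panels and the groups overlap in each; TMEM30A has 11 LS tumors below its lowest SS tumor.

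Across the 99 members, 63 had an SS mean above the LS mean, against 49.2% of all features and 2969 of the 5246 genes with a symbol. The median difference was 0.06 over the members, 0.02 over genes with a symbol and -0.003 over all features. At an unadjusted p under 0.05, 10 members differed, against 6.89% of features. Of these members 8 were higher in SS and 2 lower, in a table where 3.34% of features were higher and 3.56% lower. Among the 5246 genes with a symbol, 298 were higher and 142 lower at that level, so they leaned the same way as the members. The higher members were TMEM30A, SRP19, VPS35L, RAB22A, SEC63, REEP3, REEP5 and SEC61B, and the lower members RAB11B and RAB3B. None of the 10 other than TMEM30A was called after adjustment in either model of all 32 arrays. With dye orientation in the model 16 members had an unadjusted p under 0.05, against 14.1% of features. Here 11 members were higher and 5 lower, beside 455 and 254 of the genes with a symbol. Differences were small beside the spread: the median size of a member's difference was 0.10, and the median SE was 0.12.

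**Figure D2:**
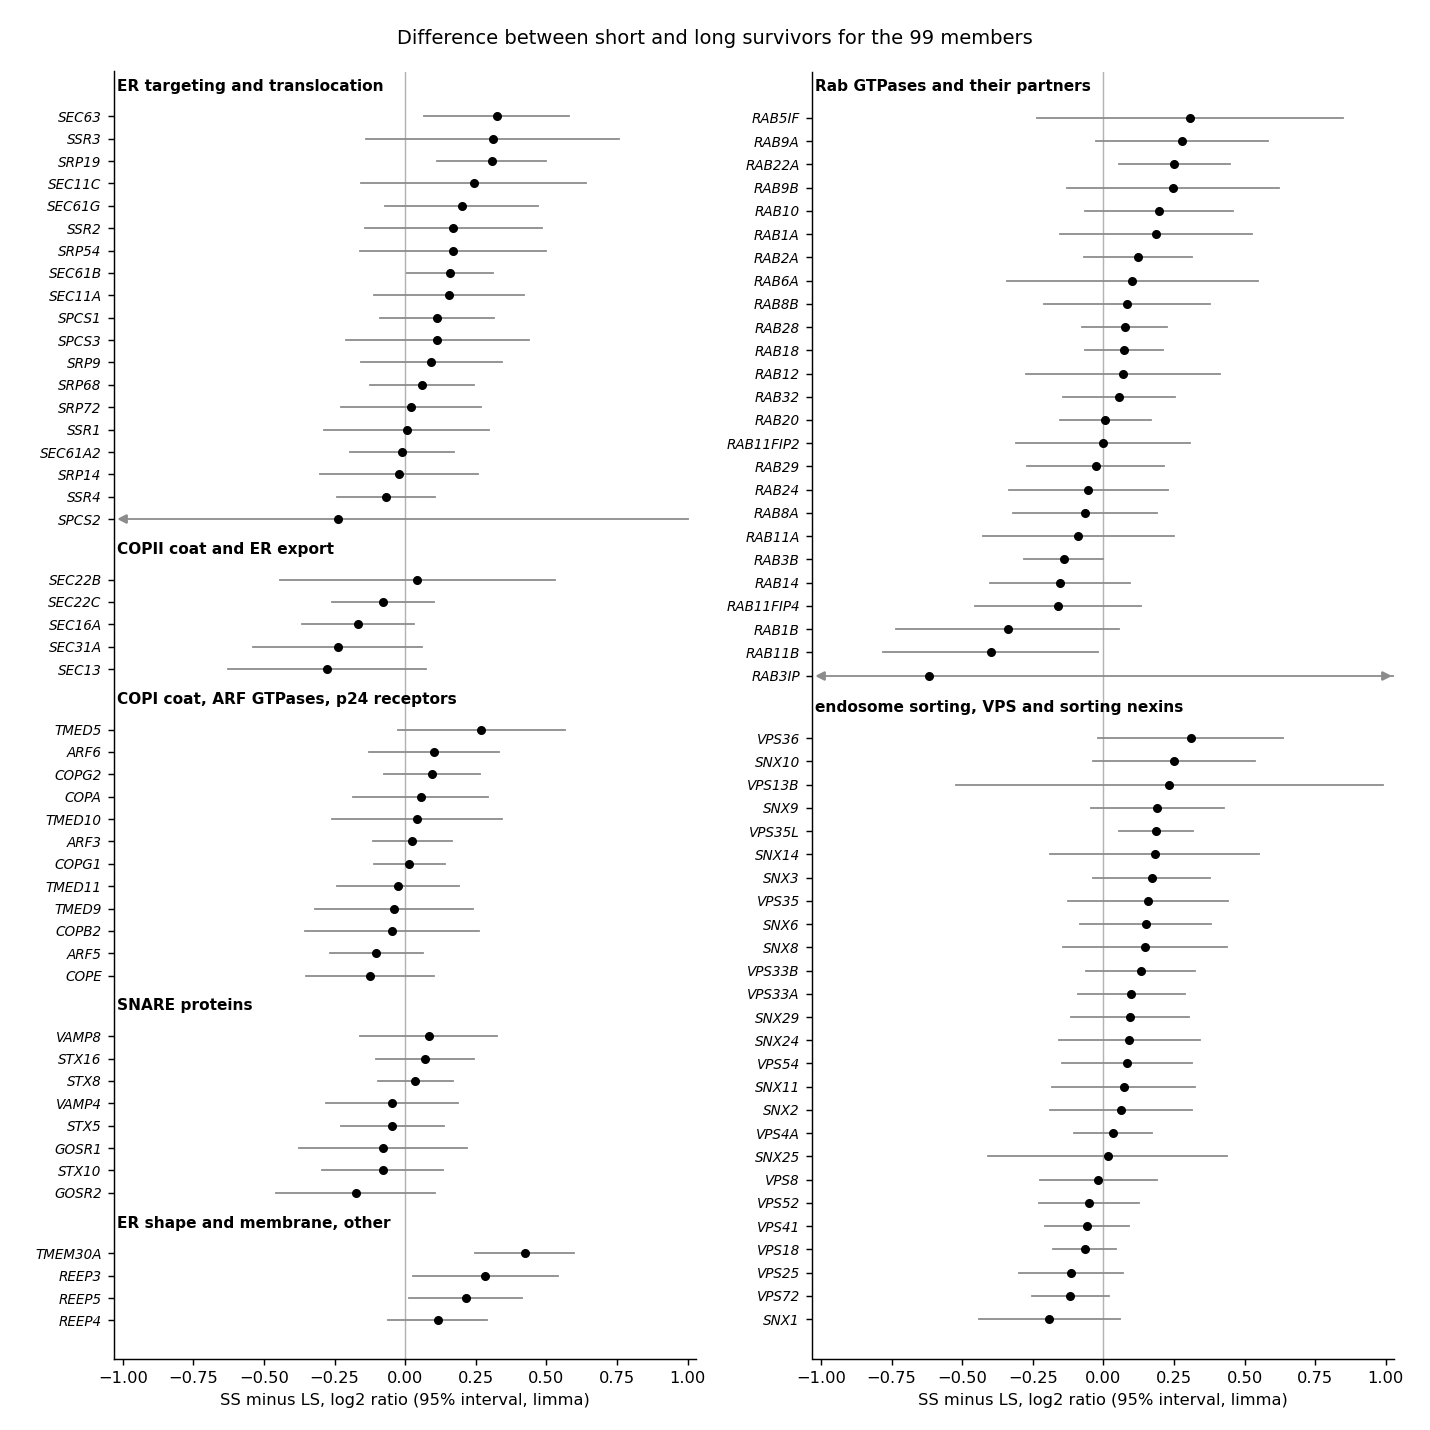
SS minus LS difference in log2 ratio for each of the 99 members, grouped by role and ordered by size within a role, with the 95% interval from limma (n = 16 and 16). The intervals of 10 members leave out 0, 8 on the side of higher values in SS; arrows mark where the intervals of RAB3IP (both ends) and SPCS2 (lower end) run past the axis.

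Of 19 genes that target proteins to the ER and thread them through its membrane, 15 had a difference above 0, with a median of 0.11, and 0 were called over all 32 arrays. With the sign of the Cy3 arrays turned, 2 of the 19 were above 0 and the median was -0.13, so this count rests on the stated switching. SRP19, which helps to assemble the RNA core of the SRP, ran from -0.41 to 0.43 in SS tumors (median 0.23) and from -0.72 to 0.38 in LS tumors (median -0.19). All but 2 of the SS tumors were above the LS mean, while 2 LS tumors lay above the SS mean. The difference was 0.31 ± 0.09 (SE, adjusted p = 0.557 without a covariate and 0.17 with dye orientation, limma). Its 3 probes gave 0.39, 0.38 and 0.15, all on the same side.

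SEC63 recruits the chaperone BiP to the translocon. Its ratio ran from -0.41 to 0.68 in SS tumors (median 0.06) and from -0.79 to 0.50 in LS tumors (median -0.14). The groups overlapped widely, although 13 of 16 SS tumors were above the LS mean. The mean of its 2 probes differed by 0.32 ± 0.13 (SE, adjusted p = 0.633, limma), and the permutation p was 0.0172 (two-sided, 100000 resamples). The probes did not give the same size of difference, at 0.50 (permutation p = 0.00056) and 0.14 (permutation p = 0.334). With every probe a feature of its own, the model with dye orientation called 94 of 22176 probes. Among them were the SEC63 probe with the larger difference (adjusted p = 0.0843, limma) and 1 of 3 probes of SRP19 (0.0819). The other SEC63 probe was not called (adjusted p = 0.623, limma). SEC63 had also been known from earlier results, so its permutation values are not independent of the choice.

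The other parts of the SRP and of the channel varied less evenly. SEC61B, a small subunit of the SEC61 channel, differed by 0.16 ± 0.08 (SE, unadjusted p = 0.042). Its ratio lay between -0.31 and 0.40 in SS tumors (median 0.11) and between -0.48 and 0.26 in LS tumors (median -0.02), and the groups overlapped. Its 2 probes gave 0.18 and 0.13. SSR3, of the complex that accompanies the channel, had a difference as large as that of SRP19, 0.31, but with an SE of 0.22. SRP68 and SRP72, which bind the SRP RNA as a pair, differed by 0.06 and 0.02, and SRP9 and SRP14, the pair that slows translation, by 0.09 and -0.02. SPCS2, of signal peptidase, was the lowest of these genes at -0.24, with an SE of 0.61.

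Coat genes had no called difference between the survival groups over all 32 arrays. Of the 5 genes of the COPII coat and the SEC22 family, 4 had a difference below 0 (median -0.17). The orientations were not alike: 1 of the 5 was above 0 in Cy5 tumors (median -0.34) and 3 of 5 in Cy3 tumors (median 0.007). SEC13 and SEC31A, which build the outer cage of the coat, differed by -0.28 ± 0.17 and -0.24 ± 0.15 (SE), and SEC16A, the scaffold of ER exit sites, by -0.17 ± 0.10. SEC13 ranged from -0.85 to 0.36 in SS tumors (median -0.31) and from -0.83 to 1.84 in LS tumors (median -0.10), and the groups overlapped along nearly the whole SS range. Without LS tumor 30 the difference of SEC13 was -0.16, and its 3 probes lay on the same side, at -0.33, -0.27 and -0.23. The 12 genes of the COPI coat, the ARF GTPases that recruit it and the p24 cargo receptors split into 7 above and 5 below 0, with a median of 0.02. TMED5, a p24 receptor, had the largest difference of them at 0.27 ± 0.15 (SE, adjusted p = 0.748, limma). SS tumors spread from -1.59 to 1.08 in TMED5 (median 0.08) and LS tumors from -0.34 to 0.15 (median -0.22), and 6 SS tumors lay above the highest LS tumor. ARF5, a Golgi GTPase, differed by -0.10 ± 0.08 (SE).

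The Rab GTPases, switches that give each compartment its identity, moved both ways. Of 25 Rabs and their partners, 14 had a difference above 0 and 11 below, with a median of 0.05. RAB22A, of early endosomes, ran from -0.18 to 0.88 in SS tumors (median 0.12) and from -0.40 to 0.36 in LS tumors (median -0.13). SS and LS tumors overlapped, with 5 LS tumors below the lowest SS tumor and 3 SS tumors above the highest LS tumor. The difference was 0.25 ± 0.10 (SE, adjusted p = 0.618 without a covariate and 0.186 with dye orientation, limma).

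RAB11B, of recycling endosomes, lay on the other side, at -0.40 ± 0.19 (SE, adjusted p = 0.694, limma). It spanned -1.11 to 0.73 in SS tumors (median -0.20) and -0.83 to 1.97 in LS tumors (median -0.03). The highest LS value came from 1 tumor, and without it the difference was -0.27. Its close relative RAB11A differed by -0.09. RAB3B, of regulated exocytosis, had a smaller difference of -0.14 ± 0.07 (SE, adjusted p = 0.705, limma), with SS tumors from -0.61 to 0.11 (median 0.03) and LS tumors from -0.23 to 0.26 (median 0.08). RAB1A and RAB1B, which both serve transport between the ER and the Golgi, lay on opposite sides at 0.18 and -0.34, and both intervals held 0. RAB14, of endosomes and the trans-Golgi network, differed by -0.15 and was not called.

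Of the 26 VPS proteins and sorting nexins, 19 had a difference above 0, with a median of 0.09. VPS35L, a subunit of the retriever complex that returns receptors to the cell surface, had the most SS tumors above the LS mean of all 99 members after TMEM30A. It ran from -0.18 to 0.43 in SS tumors (median 0.10) and from -0.45 to 0.24 in LS tumors (median -0.04). These were 15 of 16, though the ranges overlapped. The difference was 0.19 ± 0.06 (SE, adjusted p = 0.593 without a covariate and 0.197 with dye orientation, limma), and its 2 probes gave 0.20 and 0.18. Its better known relative VPS35, of retromer, differed by 0.16.

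VPS36, an ESCRT-II subunit that sorts ubiquitin-tagged cargo for degradation, differed by 0.31 ± 0.16 (SE, adjusted p = 0.742, limma), with 1 probe at 0.59 and the other at 0.03. VPS25, of the same complex, differed by -0.11. SNX1, a sorting nexin of the retromer pathway, was lowest at -0.19 ± 0.12, and VPS72, the chromatin protein, came next at -0.12 ± 0.07 (SE). Among the 8 SNAREs 3 were above 0 and 5 below (median -0.05). GOSR2, a SNARE of ER to Golgi transport, differed by -0.18 ± 0.14 (SE), or -0.11 without SS tumor 4. STX16, of the trans-Golgi network, differed by 0.07 ± 0.09 (SE), or 0.02 without SS tumor 8.

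REEP proteins bend ER membrane into tubules. With TMEM30A, which earlier results had already singled out, they form the smallest group of members. All 4 genes had a difference above 0 (median 0.25), the largest being the 0.42 of TMEM30A. REEP3 ran from -0.55 to 1.05 in SS tumors (median 0.08) and from -0.52 to 0.25 in LS tumors (median -0.18). REEP5 ran from -0.37 to 0.76 in SS tumors (median 0.10) and from -0.67 to 0.09 in LS tumors (median -0.08). For both genes the SS tumors reached further up, with 6 SS tumors above the highest LS tumor in REEP3 and 8 in REEP5. The differences were 0.28 ± 0.13 for REEP3 and 0.21 ± 0.10 for REEP5 (SE, adjusted p = 0.662 and 0.686, limma), and REEP4 differed by 0.11.

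Several probes of a gene offered a check within the arrays. Of the 99 members 38 had more than 1 probe, up to 6 for VAMP8, a SNARE of late endosomes. All probes of a gene lay on the same side of 0 for 28 of these 38 (73.7%), against 950 of 1619 genes with several probes (58.7%). The median range between probes of a member was 0.11. SPCS2 had the widest, 0.95, since its probes gave 0.24 and -0.71.

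**Figure D3:**
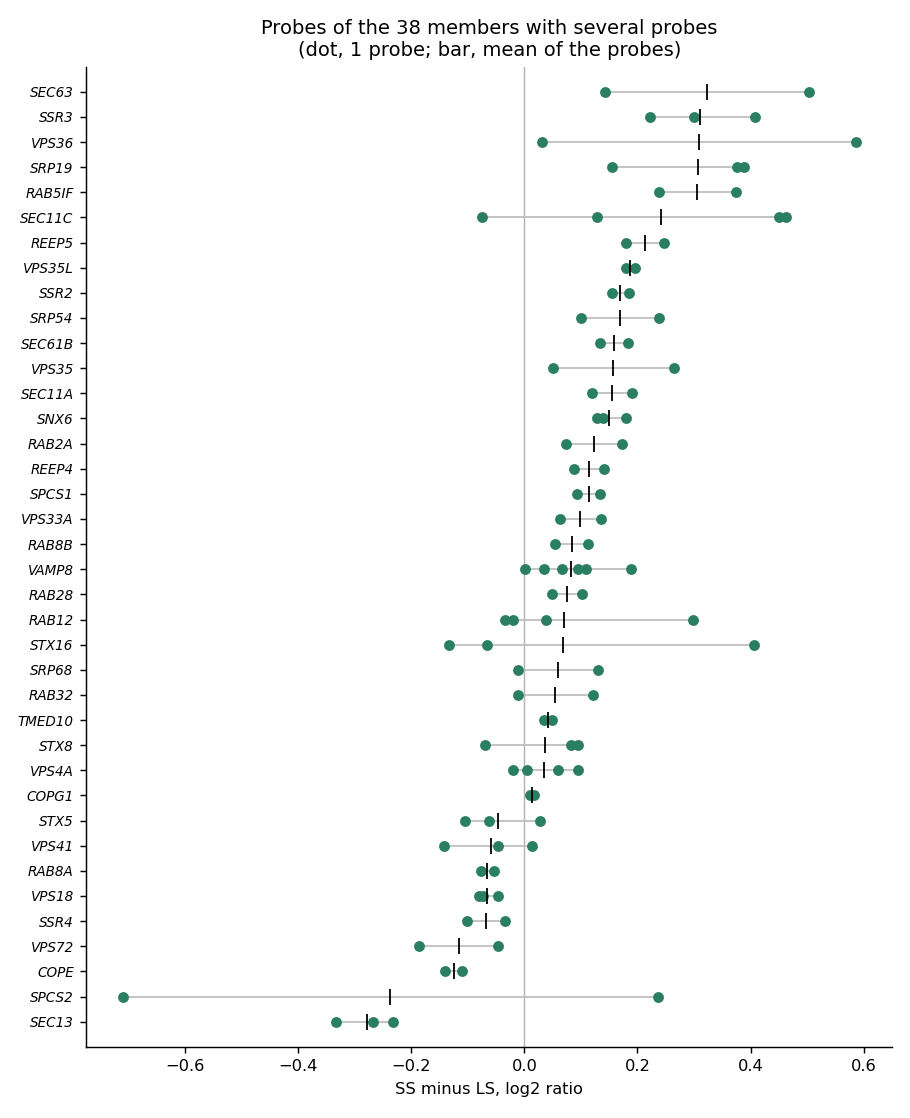
SS minus LS difference in log2 ratio of every probe (dots) of the 38 members with more than 1 probe; the bar marks the mean of the probes, and genes are ordered by it. The probes of 28 members lie on the same side of 0; those of SEC63 lie at 0.14 and 0.50, and those of SPCS2 on opposite sides.

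Many members differed more by the dye of the tumor than by survival group. Between Cy5 and Cy3 tumors, adjusted for survival group, 48 of the 99 members differed (limma, adjusted p under 0.10), against 65.6% of all features. By that test 1771 of the 5246 genes with a symbol were higher in Cy5 tumors and 1375 lower. In Cy5 tumors 30 members were higher, against 31.8% of features, and 18 lower, against 33.8%. The largest gaps were 2.07 for RAB3IP, an exchange factor for a Rab, 0.95 for RAB5IF and 0.72 for SSR3 on the side of Cy5, and -1.98 for VPS13B, a lipid transfer protein at the Golgi, -1.01 for RAB6A, a Golgi Rab, and -0.92 for SNX25 on the side of Cy3. TMEM30A had a gap of 0.04 (adjusted p = 0.711, limma) and SRP19 one of 0.002. SEC63 had a gap of -0.24 (adjusted p = 0.0843, limma).

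The gap between the dyes was not alike in the survival groups. Over the members its median size was 0.18 in SS and 0.31 in LS, and it was larger in LS for 66 of 99 members (66.7%), against 60% of all features. Each array was fitted on the gap profile of the other arrays, and its slope was doubled and, for Cy3 arrays, turned in sign. This scaled slope averaged 0.68 in SS and 1.11 in LS tumors labeled with Cy5. For tumors labeled with Cy3 it averaged 0.83 in SS and 1.13 in LS. The part of this slope in the survival differences was not tested.

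Within Cy5 tumors 54 of 99 members had a difference above 0, against 54% of all features, and 1 member was called, against 6.34% of features. This was VPS13B, higher in SS, as were 5.67% of features, while 0.664% were lower. Among the 5246 genes with a symbol 148 were called higher and 38 lower there. Within Cy3 tumors 69 members had a difference above 0, against 43.5% of all features. There 10 members were called, against 10.2% of features. Of these, 8 members were called higher in SS (COPA, RAB22A, SEC61B, SNX9, SRP19, SRP68, TMED5 and TMEM30A), where 2.85% of features were. The 2 called lower were SEC22C and VAMP4, where 7.4% of features were lower. The Cy3 fit called 221 of the 5246 genes with a symbol higher and 129 lower. At an unadjusted p under 0.05 there were 16 members in Cy5 tumors, against 14.8% of features, and 18 in Cy3 tumors, against 23.1%. The same sign in both orientations was found for 54 members, against 46.9% of features. Of these, 39 were above 0 in both, against 22.2% of features, and 15 below 0 in both, against 24.8%. Genes with a symbol numbered 1543 above 0 in both orientations and 1071 below 0 in both, of 5246.

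**Figure D4:**
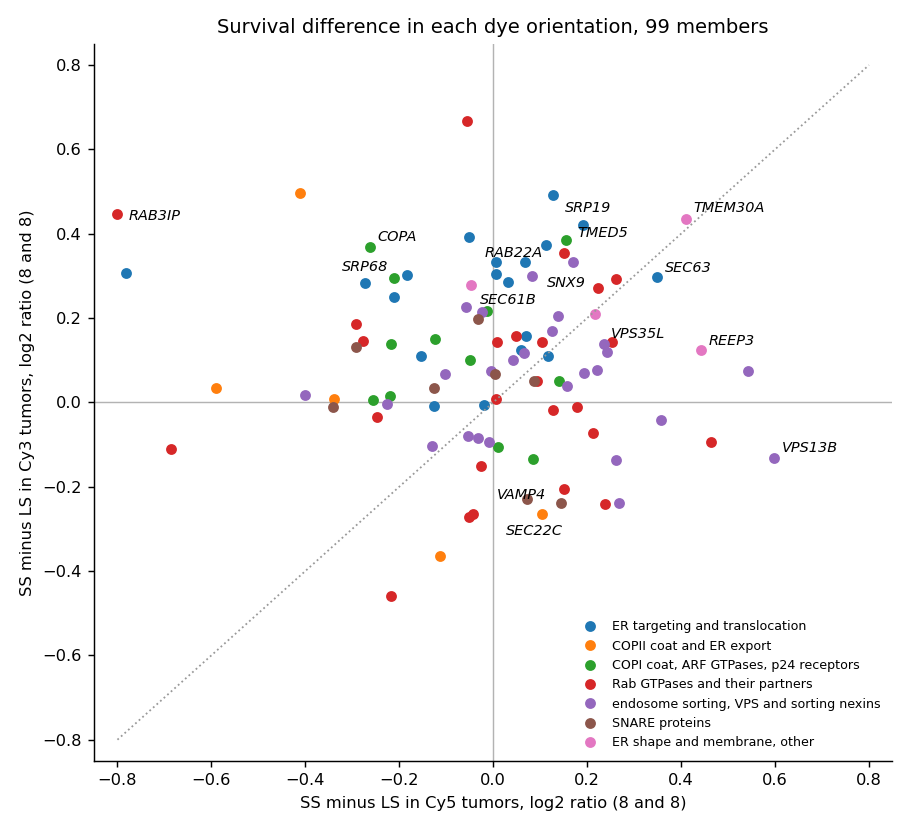
SS minus LS difference of the 99 members in Cy5 tumors (horizontal) and in Cy3 tumors (vertical), both in log2 ratio with 8 SS and 8 LS tumors each; colors give the role and the dotted line marks equal differences. TMEM30A lies near the line, COPA and SRP68 lie above 0 in Cy3 tumors only, VPS13B in Cy5 tumors only, and RAB3IP, at -1.68 in Cy5 tumors, is drawn at the left edge.

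The targeting and translocation genes had unlike counts in the orientations. In Cy3 tumors 17 of the 19 had a difference above 0, with a median of 0.30, and in Cy5 tumors 11 of 19, with a median of 0.006. Their mean per tumor averaged 0.08 in SS and -0.18 in LS tumors labeled with Cy3, but -0.01 in SS and 0.03 in LS tumors labeled with Cy5. The COPI, ARF and p24 genes did likewise, with 10 of 12 above 0 in Cy3 tumors and 4 of 12 in Cy5 tumors. Sorting nexins and VPS genes had like counts, above 0 in 17 of 26 in Cy3 tumors and in 16 of 26 in Cy5 tumors, though not in all the same genes. Of the 26, 12 were above 0 in both orientations and 5 below 0 in both. Of the 19 targeting and translocation genes it was 11 and 2. The 4 REEP and TMEM30A genes averaged 0.12 in SS and -0.13 in LS tumors labeled with Cy5, and 0.12 in SS and -0.14 in LS tumors labeled with Cy3. Of these genes 3 were above 0 in Cy5 tumors and 4 in Cy3 tumors. Their mean includes TMEM30A, which earlier results had singled out and which differed by 0.41 and 0.43, so it is not independent of that choice.

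**Figure D5:**
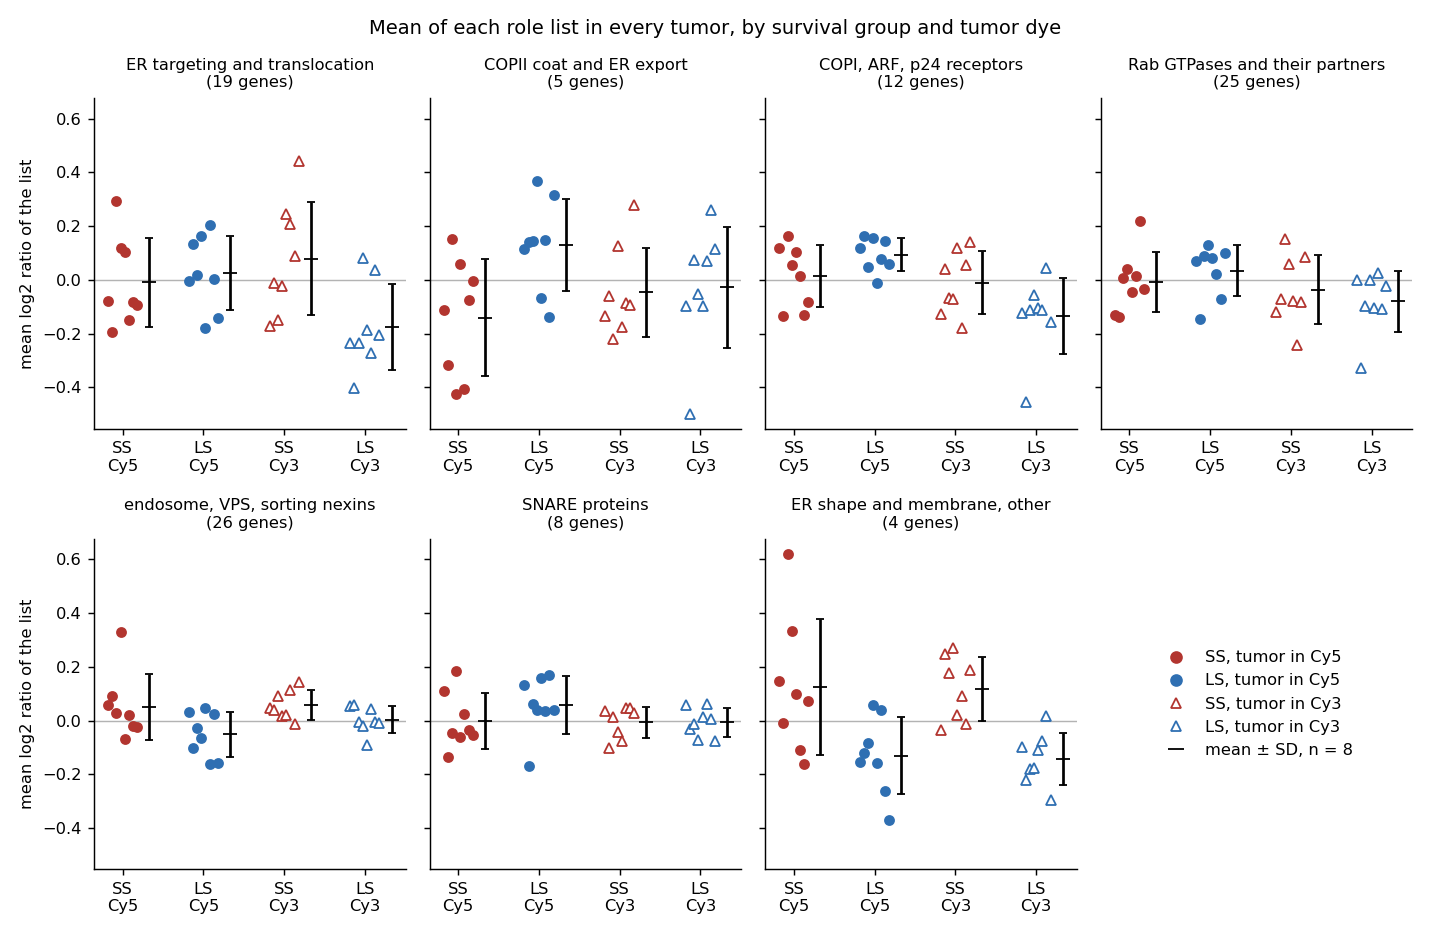
Mean log2 ratio of each role list in every tumor, by survival group and dye of the tumor, with SS left of LS for each dye; black marks give the mean ± SD of 8 tumors. LS tumors labeled with Cy3 lie lowest for the translocation genes (mean -0.18) and for the COPI group (mean -0.13), while the 4 REEP and TMEM30A genes have higher SS means for both dyes. That list of 4 includes TMEM30A, which earlier results had singled out.

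For 3 members the survival difference itself differed between the orientations (limma, adjusted p under 0.10), where 11.6% of all features did. So did that of 343 of the 5246 genes with a symbol. COPA, the alpha subunit of the COPI coat, had medians of 0.04 in SS and 0.26 in LS tumors labeled with Cy5, and of -0.10 in SS and -0.34 in LS tumors labeled with Cy3. In LS, all 8 Cy5 tumors were above 0 and all 8 Cy3 tumors below, whereas the SS tumors of both dyes lay on both sides. The differences were -0.26 in Cy5 and 0.37 in Cy3 tumors, and they differed by -0.63 ± 0.17 (SE, adjusted p = 0.0187, limma).

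SRP68 likewise had its highest median in LS tumors labeled with Cy5 and its lowest in LS tumors labeled with Cy3. Its probes gave 0.13 and -0.01 over all tumors. Its medians were 0.09 in SS and 0.23 in LS tumors labeled with Cy5, and 0.13 in SS and -0.27 in LS tumors labeled with Cy3. The differences of -0.18 in Cy5 and 0.30 in Cy3 tumors differed by -0.49 ± 0.14 (SE, adjusted p = 0.0315, limma). Its dye gap was -0.04 in SS and 0.44 in LS, and that of COPA 0.01 in SS and 0.64 in LS.

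VPS13B differed far more between the dyes than between the survival groups. In Cy5 tumors it ran from -1.04 to -0.08 in SS (median -0.70) and from -1.72 to -1.01 in LS (median -1.15). In Cy3 tumors it ran from 0.41 to 1.58 in SS (median 0.90) and from 0.53 to 1.70 in LS (median 1.07). The survival groups barely touched in Cy5 tumors and overlapped almost fully in Cy3 tumors, with differences of 0.60 (adjusted p = 0.0116, limma) and -0.13. These differed by 0.73 ± 0.22 (SE, adjusted p = 0.0351, limma), and the dye gap was -1.62 in SS and -2.35 in LS.

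Members called in the Cy3 tumors alone differed in how far the Cy5 tumors followed them. RAB22A and SRP19 had differences of 0.35 and 0.42 in Cy3 tumors and of 0.15 and 0.19 in Cy5 tumors. SEC61B gave 0.29 in Cy3 and 0.03 in Cy5 tumors, TMED5 0.38 and 0.16, and SNX9, a sorting nexin of endocytosis, 0.30 and 0.08. For these 5 genes the difference between the orientations was not called (adjusted p 0.326 to 0.716, limma). The 2 members called lower in Cy3 tumors, SEC22C and the SNARE VAMP4, had differences of -0.26 and -0.24 there and of 0.10 and 0.15 in Cy5 tumors, and the orientations differed with an adjusted p of 0.1 for SEC22C and 0.324 for VAMP4 (limma).

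Members also differed in how much they varied among tumors. Around the 4 means of survival group and dye, the residual SD had a median of 0.29 over members and 0.26 over all features. The steadiest were VPS18 (0.067), of the tethering complexes of late endosomes, VPS52 (0.11), of the tether at the trans-Golgi network, and ARF3 (0.12), a GTPase of the Golgi. The widest were RAB3IP (2.26), SPCS2 (1.81) and SEC22B (0.65), a SNARE between ER and Golgi. RAB3IP ran from -7.06 to 4.50 in SS tumors (median -0.44) and from -4.76 to 4.30 in LS tumors (median -0.57). Its lowest value and that of SPCS2 (-7.35) came from the same array, SS tumor 1.

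Other genes of the route, on lists of chaperones, glycosylation enzymes, tethers, adaptors and cargo, gave 0 calls between SS and LS without a covariate or with dye orientation. ER chaperones and folding enzymes had 10 of 13 genes above 0 (median 0.12), and 12 of 13 in Cy3 tumors against 6 of 13 in Cy5 tumors. In Cy3 tumors 3 of the 13 were called higher in SS, where 2.85% of features were: DNAJC3 at 0.23, HSP90B1 at 0.64 and PDIA4 at 0.33. In Cy5 tumors they were at 0.09, -0.17 and -0.29. Over all arrays HSP90B1 differed by 0.23 and PDIA4 by 0.02. The difference between the orientations was called for 3 of the 13 genes, where it was for 11.6% of features. DNAJC3, a co-chaperone of BiP, differed by 0.16 ± 0.07 (SE, unadjusted p = 0.0258) and SDF2L1, another ER chaperone component, by 0.15. Oligosaccharyl transferase, which attaches sugars to new chains, had 7 of 8 genes above 0 (median 0.08), led by RPN2 (0.27) and RPN1 (0.19). KRTCAP2 alone of them was called in Cy3 tumors (0.27, adjusted p = 0.061, limma), and it was at -0.07 in Cy5 tumors. Of the translocon partners 6 of 10 were above 0, with EMC2 at 0.29 and EMC7 at 0.20, both of the ER membrane protein complex.

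Later steps gave a similar mix. Among genes of ER export and cargo receptors 10 of 13 were above 0 (median 0.04), with MCFD2, a cargo receptor subunit, at 0.36 and MIA3, which loads collagen into carriers, at 0.13. Golgi tethers had 10 of 16 above 0, though GOLGA2, a golgin of the cis-Golgi, lay at -0.23, and TRAPPC2, a tether subunit, at 0.16. Clathrin and its adaptors had 11 of 14 above 0, with AP3B1 at 0.20 and PICALM at 0.20. Of the fusion genes 4 of 7 were above 0 (BET1 0.32, SCFD1 0.15) and of the ESCRT and endosome genes 4 of 7 (STAM 0.21, or 0.05 without SS tumor 1, and CHMP7 -0.22). The unfolded protein response had 2 of 5 above 0, with DERL1 at 0.25 and SEL1L at -0.08, both of ER-associated degradation. In Cy5 tumors SEL1L was called lower in SS (-0.31, adjusted p = 0.0203, limma), and in Cy3 tumors it was at 0.14. TRAPPC3, another tether subunit, was likewise called lower in Cy5 tumors (-0.40, adjusted p = 0.00601, limma) and was at 0.21 in Cy3 tumors; the fit of Cy5 tumors called 0.664% of features lower. Over all genes with a symbol, 2975 of 5246 were above 0 in Cy3 tumors and 2743 in Cy5 tumors.

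Genes of the flippase family, most of which pair with TMEM30A, had 4 of 4 above 0 (median 0.07). ATP8A1 averaged 0.11 ± 0.26 in SS and -0.12 ± 0.31 in LS (SD, n = 16 each), a difference of 0.23 ± 0.10 (SE, adjusted p = 0.645, limma). It was 0.42 in Cy5 tumors (adjusted p = 0.0759, limma), which called 5.67% of features higher, and 0.04 in Cy3 tumors. ATP10D differed by 0.12. With dye orientation in the model, 0 of these 4 genes were called.

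The matrix cargo of the route lay the other way. Of 12 collagens, matrix proteins and collagen enzymes, 10 had a difference below 0, with a median of -0.27 and 0 called. COL3A1 averaged -0.93 ± 1.37 in SS and -0.02 ± 1.23 in LS (SD, n = 16 each), a difference of -0.90 ± 0.45 (SE, adjusted p = 0.723, limma), and COL5A1 differed by -0.41 ± 0.20 (SE, adjusted p = 0.713, limma).

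Of the markers of other cells in the tissue, 0 were called in the models of all 32 arrays. All 13 skeletal muscle genes had a difference below 0 (median -0.25), with list means from -0.69 to 1.30 in SS tumors and from -0.69 to 1.77 in LS tumors. In Cy3 tumors, where most of the calls of members were made, MB (-0.33, adjusted p = 0.0565, limma) and TNNC2 (-0.35, adjusted p = 0.0655, limma) were called lower in SS, 2 of the 13 against 7.4% of features. Leukocyte genes had a difference above 0 for 7 of 9 (median 0.19), with list means from -0.73 to 1.51 in SS and from -0.73 to 0.59 in LS, and so did 3 of 3 osteoclast genes (median 0.45), with list means from -1.75 to 1.51 in SS and from -1.998 to 0.79 in LS. Osteoblast genes had 2 of 5 above 0, with list means from -1.59 to 0.86 in SS and from -2.97 to 1.22 in LS. Endothelial genes had 1 of 4 above 0 and cartilage genes 0 of 2. As the pool was made from the same tumors, ratios cannot show whether a defining marker is present, and the part of these cell types in the members' differences was not tested.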

How the data were processed

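The deposited values were log2 ratios of tumor over reference pool on 32 arrays. For these the authors flagged defective spots, normalized by print-tip Lowess, log transformed and switched the dye-swapped arrays. The base is not given in the sources used here and was taken as 2, since the largest size was 15.13, and the direction rests on the stated switching. Cy5 and Cy3 arrays correlated at a median of -0.26 (within Cy5 0.28, within Cy3 0.40), and their mean profiles at -0.66. Array medians lay between -0.03 and 0.02 and SDs between 0.47 and 0.76. The number of arrays limits the precision, and signal over background was not analysed here.

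Symbols came from the platform annotation (7694 probes with 1 symbol, 14482 with none and left unnamed), and 96 of 99 members matched RefSeq by gene identifier. Probes of a gene were averaged, giving 19728 features with the unnamed probes; 5 values were missing, 0 on members. Tests were two-sided in limma 3.58.1 (R 4.3.3, lmFit and eBayes) with Benjamini-Hochberg adjustment over all features at 0.10, without a covariate, with dye orientation, within each orientation and for their interaction. Significance Analysis of Microarrays (SAM) was rebuilt with 100 permutations and 10 neighbors. Permutation tests used SciPy 1.17.1 (Python 3.11.15). The limma and SAM fits were tested on simulated data. Each tumor is from 1 dog.

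Members, lists and tests were chosen with earlier results of these data known. Named are SEC63, TMEM30A, members called in any fit, the 10 higher and 10 lower with the smallest p, the 2 with the smallest p per role and per other list, the 3 with the largest and the 3 with the smallest residual SD, and the 3 with the largest dye gap each way. Other genes are named beside a relative or for a call within 1 orientation, chosen after their values were seen.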

Additional observations from a re-analysis of the deposited data

Results flagged for a closer look

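For COPA, SRP68 and VPS13B the SS minus LS difference differed between Cy5 and Cy3 tumors, by -0.63, -0.49 and 0.73 on the log2 scale in the test of the difference itself (limma, adjusted p = 0.0187, 0.0315 and 0.0351). Each of the 38 named members was also searched for a tumor far from the other 7 of its survival group and dye, in 152 sets of 8 tumors. The search found 16 such values in 15 members. SS tumors 1, 3, 4 and 10 and LS tumor 22 gave 2 of these values each. For normally distributed values in members chosen without regard to them, chance gives about 1 in 20 sets. The named members were partly chosen by their values, RAB3IP, SPCS2 and SEC22B for the largest residual SD. The 16 can therefore not be set against that rate.

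Among SS tumors labeled with Cy5, the isolated values were -7.06 in RAB3IP and -7.35 in SPCS2 (both tumor 1), 1.62 in VPS36 (tumor 2), 0.42 in ARF5 and -1.59 in TMED5 (both tumor 3), -1.18 in GOSR2 and -0.75 in SEC22C (both tumor 4), -1.99 in SEC22B (tumor 6) and 0.77 in STX16 (tumor 8). Among SS tumors labeled with Cy3 they were 0.59 in TMEM30A and -0.32 in VPS72 (both tumor 10), 0.0354 in VPS18 (tumor 15) and 1.15 in SNX25 (tumor 16). Among LS tumors they were 1.97 in RAB11B (tumor 29, Cy5) and, in tumor 22 labeled with Cy3, -0.67 in REEP5 and -0.42 in VPS72.

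Left out singly, these tumors changed most for SPCS2, whose difference was then 0.23 in place of -0.24, and for RAB3IP, at -0.19 in place of -0.62. TMEM30A kept a difference of 0.40 without tumor 10, TMED5 had 0.38 without tumor 3 and VPS36 had 0.21 without tumor 2.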

How the results depend on the processing

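The number of members called between SS and LS without a covariate, 0, was also 0 with the median of the probes, every probe a feature, SAM on gene means, the rank-sum test (1405 features and 9 members at an unadjusted p under 0.05), scaled arrays, quantile normalization, array weights, features with a symbol and a threshold of 0.05. It was 1 with dye orientation, 1 in Cy5 tumors, 10 in Cy3 tumors and 5 with the sign of the Cy3 arrays turned. The number of features called with that sign turned is not given here, so the 5 cannot be set against it. SAM with every probe a feature, added after seeing the data, gave 3 (SEC63, SRP19 and TMEM30A), among 59 of 22176 probes called. With each array left out it was 0 to 1. The 1 was TMEM30A without LS tumor 30, the 1 feature called in that fit. Members at an unadjusted p under 0.05, 10 of 99, were 16 with dye orientation, 16 in Cy5 and 18 in Cy3 tumors, and 6 to 12 with an array left out, lowest without SS tumor 3. Members above 0, 63 of 99, were 37 with the Cy3 sign turned and 58 to 65 with an array left out. The counts of the role lists with that sign turned were added after seeing the data: 2 of 19 targeting and translocation genes, 2 of 5 COPII, 3 of 12 COPI, 12 of 25 Rab, 13 of 26 endosome, 3 of 8 SNARE and 2 of 4 REEP and TMEM30A genes were above 0. With dye orientation 1 member was called, among 69 of 19728 features. With every probe a feature 3 were called, among 94 of 22176 probes. With an array left out it was 1 to 3 members, among 39 to 398 features. The 3 were RAB22A, SRP19 and TMEM30A without SS tumor 7, the fit in which 398 features were called. A threshold of 0.05, added after seeing the data, left 1 member. The orientations differed for 3 members, 5 with scaled arrays. The cause of these changes was not tested.

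In Cy5 tumors the sign turned for ARF3 (-0.0502), COPA (-0.26), RAB5IF (-0.0550), SEC22B (-0.41), SEC22C (0.10), SRP68 (-0.18), VAMP4 (0.15) and SCFD1 (-0.000345), and in Cy3 tumors for ARF5 (0.0149), RAB3IP (0.45), SEC13 (0.0348), SEC16A (0.00705), SNX1 (0.0164), SNX25 (-0.24), SPCS2 (0.31), VPS13B (-0.13) and SEL1L (0.14). SPCS2 turned with every probe a feature (0.24) and with array weights (0.21), and SEC22B with scaled arrays (-0.0212). With an array left out SEC22B ran from -0.0454 to 0.17, SNX25 from -0.0584 to 0.0934, SPCS2 from -0.46 to 0.23 and VAMP4 from -0.12 to 0.0182. Of the 60 named genes, 20 moved by over 1.5 times or turned when 1 array was left out. Beside these 4 and SEC13, GOSR2, STX16 and STAM, they were ARF3 (0.00543 without SS tumor 2), ARF5 (-0.0640, LS tumor 29), COPA (0.0180, SS tumor 15), RAB3IP (-0.19, SS tumor 1), RAB6A (0.0203, LS tumor 18), RPN1 (0.12, SS tumor 13), SCFD1 (0.29, SS tumor 2), SDF2L1 (0.0909, SS tumor 4), SEC22C (-0.0321, SS tumor 4), SRP68 (0.0282, LS tumor 25), VPS13B (0.12, LS tumor 32) and VPS52 (-0.0238, SS tumor 12).

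Had the Cy3 arrays not been switched, 31 of the named genes would turn: ARF3 (-0.0750), COPA (-0.32), RAB14 (0.11), RAB1B (0.12), RAB22A (-0.10), RAB5IF (-0.36), RAB6A (-0.0546), SEC22B (-0.45), SEC22C (0.18), SEC31A (0.12), SEC61B (-0.13), SNX9 (-0.11), SRP19 (-0.11), SRP68 (-0.24), SSR3 (-0.18), TMED5 (-0.11), TMEM30A (-0.0119), VAMP4 (0.19), VPS18 (0.0124), VPS52 (0.0429), AP3B1 (-0.0915), CHMP7 (0.0489), DNAJC3 (-0.0728), EMC2 (-0.10), EMC7 (-0.17), GOLGA2 (0.0666), MCFD2 (-0.0535), PICALM (-0.0307), RPN1 (-0.18), SCFD1 (-0.15) and TRAPPC2 (-0.15). No paired analysis was possible because the tumors of the 2 groups share no replicate numbers in the labels.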
